A study of Mus musculus with 4 samples.

Results

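The genes described here are 41 genes of the integrated stress response, of serine, one-carbon and proline synthesis, and of protein folding in the endoplasmic reticulum (ER), the cytosol and the mitochondria. They were listed by name, and each was read from the 1 probe set that carries its symbol alone in the platform annotation, or from the one with the highest mean over the 4 arrays where several do. By this rule 37 of the 41 were measured, of 30145 genes measured in all. Hspa1b and Pdia4 are named only on probe sets that also carry another symbol, and Hsf1 and Pycr1 are not analysed here. The cells were lineage-negative, c-Kit-positive (Lin- c-Kit+, LK) blood-forming progenitors from the NOD (non-obese diabetic) mouse strain. The combination (combo) group received dimethyl prostaglandin E2 (dmPGE2, 10 µM), a stable prostaglandin analog, together with dexamethasone (10 µM), a glucocorticoid. The vehicle group received DMSO. Cells of both groups were kept in StemSpan medium for 4 h at 37 °C, and each group had 2 samples, numbered 1 and 2. No sample with 1 drug alone was analysed here. The labels call the samples of a group biological duplicates without naming animals, their age or pooling, so p-values measure the spread between these samples only.

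The integrated stress response starts when 1 of several kinases phosphorylates the translation factor eIF2, which lowers protein synthesis while the mRNA of the transcription factor ATF4 is translated more. ATF4 is therefore set largely at translation, and its activity is usually read from its targets, which make, import and attach amino acids to tRNA. The unfolded protein response of the ER has 3 sensors, encoded by Eif2ak3 (PERK), Ern1 (IRE1) and Atf6, and IRE1 splices the mRNA of Xbp1 into the form that encodes the active factor. Heat shock genes of the cytosol and mitochondria are driven mainly by HSF1. Blood-forming progenitors are known to depend on controlled protein synthesis and folding. The values used here, 1 per probe set on each array, report neither splicing of Xbp1 nor translation of Atf4.

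Signals are log2 values as deposited, and differences are combo minus vehicle. Adjusted p-values are from limma, adjusted by Benjamini-Hochberg over all 65956 probe sets. Medians of the arrays lay between 4.36 and 4.44, and the highest single background probe set was at 5.55. The progenitor gene Kit was at 10.51 and 9.62 on the combo arrays and at 10.18 and 10.32 on the vehicle arrays, and Mpo, Elane, Ctsg and Prtn3 of granulocyte progenitors were above 13 on all 4. Of the T cell markers all 7 measured, and of the B cell markers 5 of 6, stayed within the background range on every array. All 12 mature neutrophil markers were higher in replicate 1 than in replicate 2 in both groups, by up to 5.05 in the combo group and 6.13 in the vehicle group for Ngp, a granule protein gene.

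None of the 37 genes passed an adjusted p of 0.05, which 0.00303% of all probe sets passed. The clearest difference within the list was lower signal of the mitochondrial serine enzyme gene Shmt2, and with it of Phgdh and Mthfd2, while Atf4 itself differed by less than its spread. In the other direction Xbp1 was higher in the combo group, whereas the 8 measured chaperone genes of the ER overlapped between the groups. Such overlap was seen for 7429 of 11464 genes with a mean signal of 6 or more. Of 34 further ER genes measured, 23 had higher means in the combo group (67.6%), against 38.5% of genes with that signal. At an unadjusted limma p under 0.05, 3 of the 37 were lower (8.11%), against 2.65% of all genes and 5.28% of the 11464 genes with a mean signal of 6 or more. At the same threshold 1 of 37 was higher (2.70%), against 2.66% of all genes and 3.36% of those with a mean signal of 6 or more. Both combo arrays lay below both vehicle arrays for 10 of 37 (27.0%), against 15.4% and 23.2% of the same 2 sets of genes, and above them for 2 of 37 (5.41%), against 19.7% and 12%. The share of genes lower without overlap was thus near that of genes with a clear signal, and the share higher without overlap was below it. The median difference of the 37 was -0.14, against 0.01 over all genes and -0.06 over those with a mean signal of 6 or more.

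**Figure D1:**
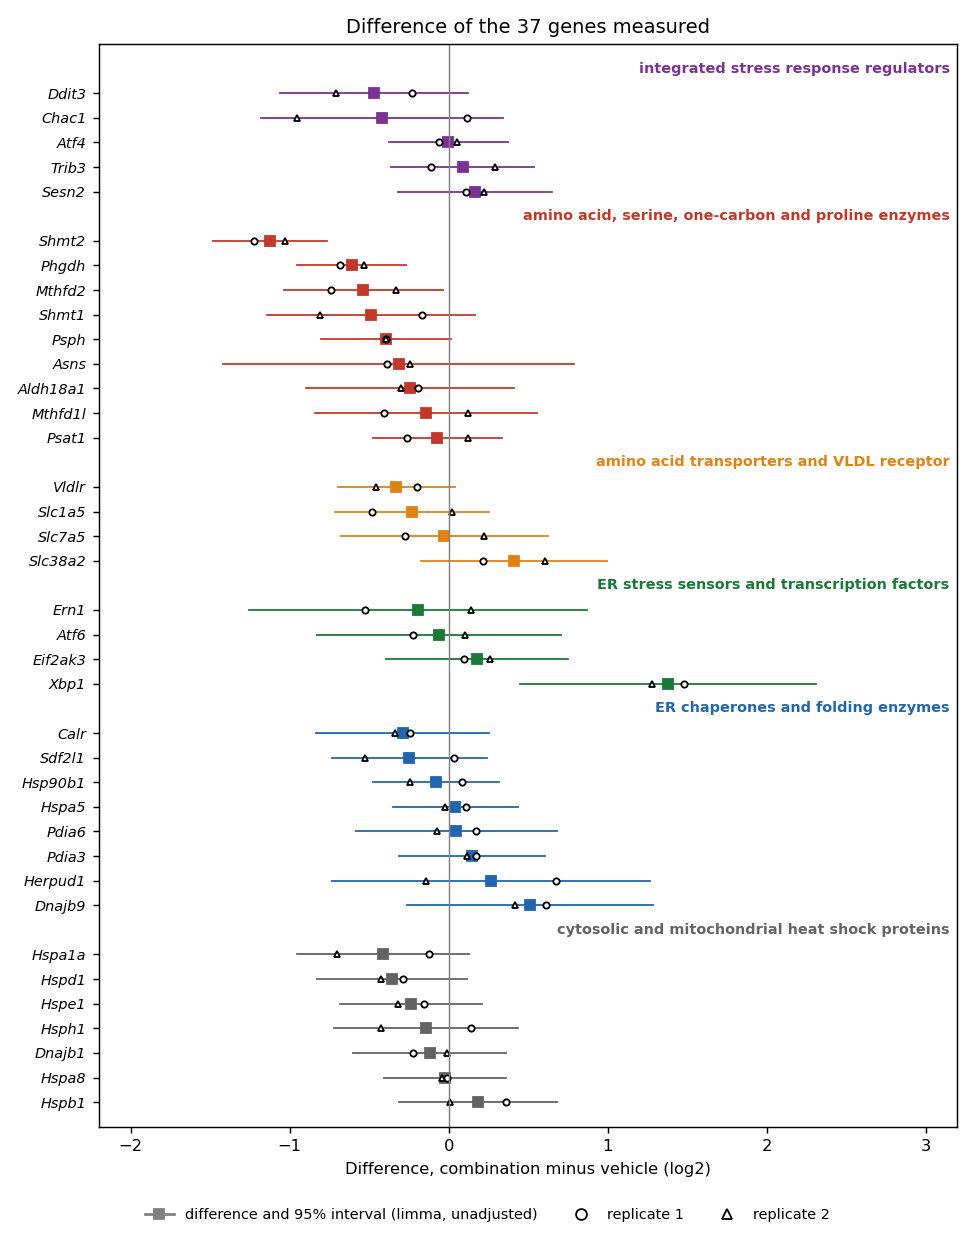
Difference between combo and vehicle arrays for the 37 genes measured, in log2 units, with the 95% interval of limma before adjustment (squares and lines) and the difference within replicate 1 (circles) and replicate 2 (triangles). Shmt2 lies at -1.13 and Xbp1 at 1.38, and most of the other intervals include 0.

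Of the regulators of the integrated stress response, Atf4 was at 9.84 and 10.03 on the combo arrays and at 9.90 and 9.98 on the vehicle arrays. The groups overlapped, with a difference of -0.003 (SE 0.14) and a 95% interval from -0.38 to 0.37. Ddit3, which encodes CHOP, a transcription factor of prolonged stress, was at 10.50 and 10.58 on the combo arrays and at 10.73 and 11.29 on the vehicle arrays. Both combo arrays lay below both vehicle arrays, but most of the gap came from vehicle replicate 2: the difference was -0.47 on all arrays (limma adjusted p = 0.92) and -0.19 without it, and -0.75 without vehicle replicate 1. A further probe set of Ddit3, which has no chromosome in its name, gave a difference of -0.58. Sesn2, a stress-induced regulator of amino acid signalling, differed by 0.16. Chac1, which degrades glutathione, differed by -0.42, with opposite signs in replicate 1 (0.12) and replicate 2 (-0.95), and it was -0.07 without vehicle replicate 2. Trib3, a pseudokinase induced by ATF4 and CHOP, stayed within the background range on all 4 arrays, at 4.25 to 4.60 in the combo group and 4.31 to 4.36 in the vehicle group. At the unadjusted threshold 0 of these 5 genes passed.

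Serine is made from a glycolytic intermediate by the enzymes of Phgdh, Psat1 and Psph, and is then split to glycine and a one-carbon unit by the products of Shmt1 in the cytosol and Shmt2 in mitochondria. All 9 measured enzyme genes of this group had lower means in the combo group, with a median difference of -0.39, where 61.5% of genes with a mean signal of 6 or more had lower means. Both combo arrays lay below both vehicle arrays for 5 of the 9 (55.6%), against 23.2% of genes with a mean signal of 6 or more. At the unadjusted threshold 3 of the 9 were lower (33.3%), against 5.28%. Shmt2 was at 10.78 and 10.80 on the combo arrays and at 12.00 and 11.83 on the vehicle arrays. The arrays of each group lay close together, 10.79 ± 0.02 in the combo group and 11.92 ± 0.12 in the vehicle group (SD, n = 2 each). This is 2.18-fold lower, a difference of -1.13 (SE 0.14, limma adjusted p = 0.34), and it lay between -1.21 and -1.04 when any 1 array was left out. Markers of cell types differed in sign between lists. All 11 measured progenitor markers (median -0.18, Cd48 -0.94) and all 6 measured erythroid markers (median -0.30) had lower means in the combo group. The mean signal of the erythroid markers was 11.32 and 10.86 on the combo arrays and 11.82 and 11.04 on the vehicle arrays, and that of the progenitor markers 11.70 and 11.98 on the combo arrays and 11.91 and 12.32 on the vehicle arrays. Of 8 mast cell and basophil markers 7 also had lower means, whereas 9 of 12 mature neutrophil and 4 of 6 megakaryocyte markers had higher means. Higher means were seen for 53.2% of all genes and 38.5% of those with a mean signal of 6 or more. The megakaryocyte marker Ppbp differed by 5.52, while Gp9 (-0.37) and Vwf (-0.38) were lower. Means of 6 of 7 T cell markers were also higher, but all 7 lay within the background range on every array. Among 10 monocyte and macrophage markers 6 had higher means. At the unadjusted threshold 3 were higher (30%) and 3 lower (30%), against 3.36% and 5.28% of genes with a mean signal of 6 or more. The higher ones were Vcan (3.29), C1qb (1.09) and Ms4a7 (0.70), and the lower ones Adgre1 (-0.56), Csf1r (-0.91) and Mrc1 (-2.19). Ms4a7 lay within the background range on all 4 arrays, and C1qb on both vehicle arrays. The mean signal of these 10 was 7.31 and 7.55 on the combo arrays and 7.05 and 7.45 on the vehicle arrays. The part of any of these cells in the values of Shmt2 or Xbp1 was not tested. In bulk samples of this kind fewer cells of a type and less RNA per cell cannot be told apart.

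Phgdh, the first and committed enzyme of serine synthesis, was at 11.10 and 11.16 on the combo arrays and at 11.78 and 11.69 on the vehicle arrays. The groups were apart in both replicate numbers, by -0.69 and -0.53, a 1.53-fold lower mean (limma adjusted p = 0.65). Mthfd2, the mitochondrial folate enzyme that oxidises the one-carbon unit from SHMT2, was at 9.28 and 9.71 on the combo arrays and at 10.02 and 10.04 on the vehicle arrays. Its difference of -0.54 (limma adjusted p = 0.88) leaned on combo replicate 1, without which it was -0.32, and it passed the unadjusted threshold in 1 of the 4 fits with an array left out. Psph, which completes serine synthesis, was dim, at 5.83 and 5.63 on the combo arrays and at 6.23 and 6.03 on the vehicle arrays, with the same difference of -0.39 in both replicate numbers. Shmt1 was at 7.98 and 7.33 on the combo arrays and at 8.14 on each vehicle array, so the gap was mainly in combo replicate 2. The difference was -0.49 on all arrays, -0.17 without it and -0.81 without combo replicate 1. Psat1, the aminotransferase between PHGDH and PSPH, overlapped between the groups, with a difference of -0.07.

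Asparagine synthetase (Asns), a classic ATF4 target, was at 12.09 and 11.31 on the combo arrays and at 12.48 and 11.56 on the vehicle arrays. The groups overlapped, since replicate 1 exceeded replicate 2 by 0.78 in the combo group and by 0.92 in the vehicle group, more than the -0.32 between the groups. Within each replicate number Asns was lower in the combo group, by -0.39 and -0.24. The proline enzyme gene Aldh18a1 differed by -0.24 and the mitochondrial folate gene Mthfd1l by -0.14, and both overlapped. Leaving out 1 array turned the sign for Asns, Psat1, Mthfd1l and Aldh18a1.

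**Figure D2:**
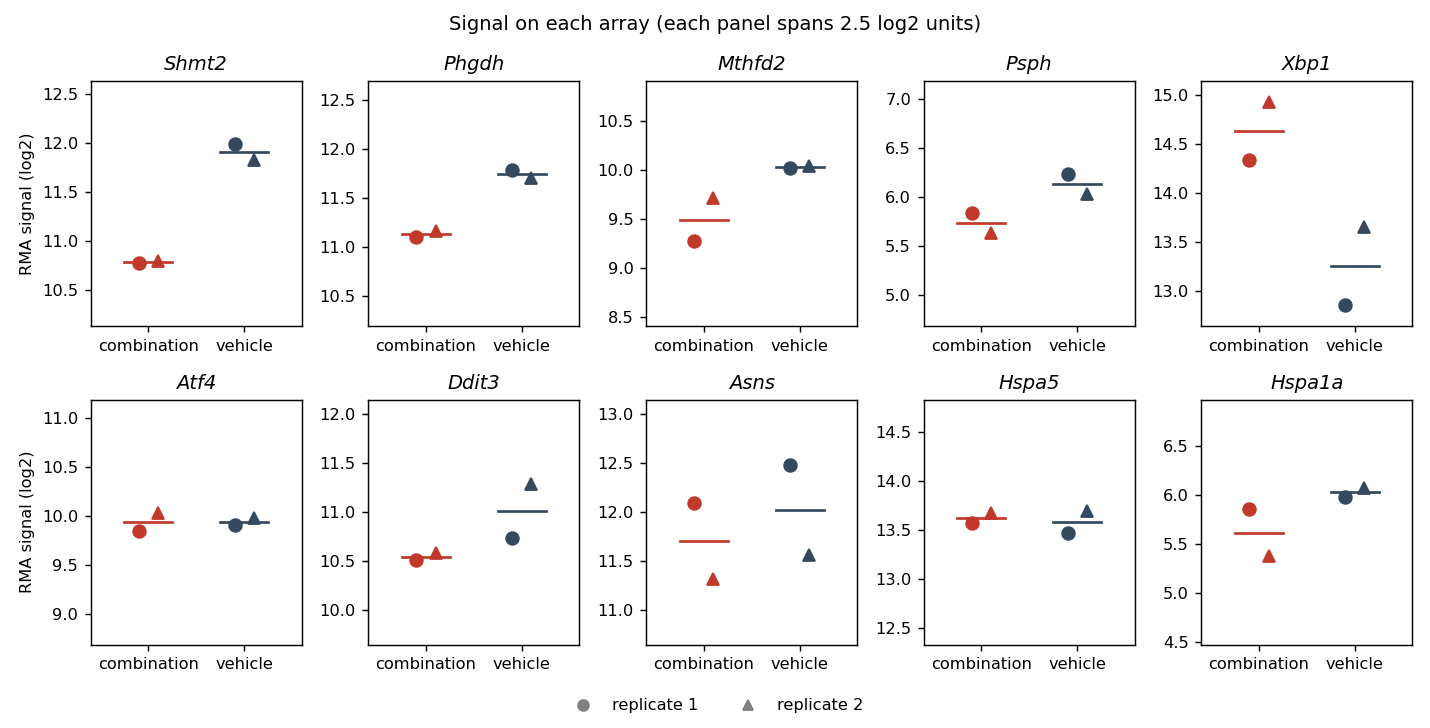
RMA signal (log2) on each array for 10 of the genes, combo (combination) left of vehicle, with circles for replicate 1, triangles for replicate 2 and a bar for the mean of the 2 arrays. Shmt2 and Phgdh are lower and Xbp1 higher on both combo arrays, Atf4 and Hspa5 overlap, and Asns separates by replicate number.

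The amino acid carriers differed among themselves. Slc38a2 (SNAT2), an importer of small neutral amino acids, was at 11.38 and 11.91 on the combo arrays and at 11.16 and 11.31 on the vehicle arrays, and both combo arrays were the higher ones (difference 0.41, limma adjusted p = 0.93). The difference was 0.14 without combo replicate 2 and 0.68 without combo replicate 1. Slc7a5 (LAT1), which imports large neutral amino acids, and Slc1a5 (ASCT2), which imports glutamine, overlapped, with differences of -0.03 and -0.23, the second of which was -0.03 without combo replicate 1 and -0.43 without combo replicate 2. Vldlr, a lipoprotein receptor gene under ATF4 control, was lower on both combo arrays (-0.33), and 3 of its 4 arrays lay within the background range.

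Further genes of these pathways came from lists drawn up by name, with earlier results of these data known. Their shares are therefore descriptive. Among 37 measured of 40 other ATF4 and CHOP targets and partners, 3 were higher (8.11%) and 6 lower (16.2%) at the unadjusted threshold, with a median of -0.12. For all genes these shares were 2.66% and 2.65%, and for those with a mean signal of 6 or more 3.36% and 5.28%. The cystine carrier gene Slc7a11 (3.48) and the mTORC1 inhibitor gene Ddit4 (1.44), which is also a glucocorticoid target, were higher on both combo arrays, 11.2-fold and 2.72-fold. Slc7a11 was at 10.23 and 11.60 on the combo arrays and at 7.67 and 7.19 on the vehicle arrays. The alanine aminotransferase gene Gpt2 (-0.56) and the isoleucyl-tRNA synthetase gene Iars (-0.49) were lower. The 11 measured aminoacyl-tRNA synthetase genes on that list, grouped after their values were seen, all had lower means in the combo group, with a median of -0.18. Their median was -0.41 within replicate 1 and 0.01 within replicate 2. Lower means were seen for 61.5% of genes with a mean signal of 6 or more. Among 18 measured of 25 other serine, glycine, proline and folate enzymes, 1 was higher (5.56%) and 2 were lower (11.1%). Ahcy, which clears the product of methylation reactions, differed by -0.77, and Sfxn1, the mitochondrial serine carrier gene, by -0.45. The glycine cleavage gene Gldc differed by 0.72 with all 4 arrays within the background range. Of 13 measured kinase and eIF2 cycle genes 1 was lower (7.69%, against 5.28% of genes with a mean signal of 6 or more) and 0 were higher. The lower one was Eif2ak4, which encodes the amino acid sensor GCN2 (-0.45, limma adjusted p = 0.84). Eif2ak2 was at 11.65 and 8.09 on the combo arrays and at 11.71 and 8.72 on the vehicle arrays. With such a gap between replicate numbers, its 95% interval ran from -4.40 to 3.72. The smallest limma adjusted p among the genes of these lists was 0.40, for Slc7a11.

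The sequence that ATF4 binds with C/EBP partners, the C/EBP-ATF response element, was searched in RefSeq promoter windows of GRCm38.p6, each 300 bases long (250 before and 50 after the annotated start), on both strands. Written as TGATGNAA, it was present in 3.97% of 32851 windows. It was in those of 5 of the 33 measured genes that have a window, namely Asns, Chac1, Herpud1, Trib3 and Vldlr. For every motif here, a gene counted if any of its windows matched, whereas the share of all windows is per window. Only exact letters within the windows were searched, so variant elements and sites outside the windows could not be found. The matches of TGATGNAA upstream of the start are shown with 15 bases on each side and the match in capitals. They are shown because this is the element known for ATF4.
Asns (chr6:7693210-7693247, strand -): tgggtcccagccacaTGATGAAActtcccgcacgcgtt
Chac1 (chr2:119351034-119351071, strand +): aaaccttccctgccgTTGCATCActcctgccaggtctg
Herpud1 (chr8:94386302-94386339, strand +): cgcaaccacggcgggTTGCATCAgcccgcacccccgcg
Vldlr (chr19:27216805-27216842, strand +): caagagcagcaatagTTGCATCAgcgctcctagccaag
None of these 4 genes passed the unadjusted threshold. Shmt2, Phgdh, Mthfd2 and Psph hold no such letters in their windows, nor any other motif searched here. These were the cAMP response element TGACGTCA, the glucocorticoid response element written as GNACA and TGTNC with 3 bases between them, and the elements of ER and heat stress given with their genes, and the first 2 of these were in 1.79% and 0.475% of all windows and in 0 of the 33. The 250 bases upstream of the annotated start of Shmt2, the gene with the largest lower value, therefore carry no capitals.
Shmt2 (chr10:127522445-127522694, strand -): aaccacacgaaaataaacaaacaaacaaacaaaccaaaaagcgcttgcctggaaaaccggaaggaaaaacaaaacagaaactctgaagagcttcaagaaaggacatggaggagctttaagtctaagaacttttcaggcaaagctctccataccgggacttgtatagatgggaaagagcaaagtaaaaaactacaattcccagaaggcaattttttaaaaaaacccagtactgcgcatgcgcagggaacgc

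Among the sensors and factors of ER stress, Xbp1 stood out. It was at 14.34 and 14.94 on the combo arrays and at 12.86 and 13.66 on the vehicle arrays. Both combo arrays exceeded both vehicle arrays, and replicate 2 exceeded replicate 1 in each group. The means were 14.64 ± 0.42 in the combo group and 13.26 ± 0.57 in the vehicle group (SD, n = 2 each), 2.60-fold higher, a difference of 1.38 (SE 0.35, limma adjusted p = 0.78). Within replicate 1 the difference was 1.48 and within replicate 2 it was 1.28. Without vehicle replicate 1 it was 0.98, and without combo replicate 2, where no gene of the list was higher at the unadjusted threshold, it was 1.08. The signal does not tell spliced from unspliced Xbp1. The window upstream of Xbp1, shown because it is the gene with the largest higher value, holds none of the searched motifs either.
Xbp1 (chr11:5520391-5520640, strand +): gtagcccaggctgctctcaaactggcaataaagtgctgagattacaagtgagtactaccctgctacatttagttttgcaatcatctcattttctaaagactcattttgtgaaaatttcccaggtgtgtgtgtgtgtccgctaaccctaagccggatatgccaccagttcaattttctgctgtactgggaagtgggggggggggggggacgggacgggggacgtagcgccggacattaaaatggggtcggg
Ern1, Eif2ak3 and Atf6 overlapped between the groups, with differences of -0.19, 0.18 and -0.06, and combo replicate 2 was the highest array for all 3. Xbp1 is abundant in plasma cells, and of 7 measured plasma cell markers 4 stayed within the background range on every array, Sdc1 and Tnfrsf17 among them. Jchain was at 7.45 and 7.39 on the combo arrays and at 7.21 and 8.07 on the vehicle arrays, and Prdm1 differed by 0.84 with 3 of 4 arrays within the background range. The mean signal of the 7 was 5.35 and 5.47 on the combo arrays and 5.28 and 5.51 on the vehicle arrays. The part of such cells in the Xbp1 result was not tested.

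Among chaperones and folding enzymes of the ER all 8 measured genes overlapped between the groups, with a median difference of 0.04. Such overlap was seen for 7429 of 11464 genes with a mean signal of 6 or more. Of the 8, 5 had higher means in the combo group (62.5%), against 38.5% of genes with that signal. With the 4 sensors and factors included, the median of 12 was also 0.04, and it was -0.21 without vehicle replicate 1, -0.04 without combo replicate 2, 0.22 without vehicle replicate 2, 0.28 without combo replicate 1 and -0.0080 after centring the arrays. Hspa5, which encodes the chaperone BiP and is the usual gauge of ER stress, was at 13.57 and 13.67 on the combo arrays and at 13.47 and 13.70 on the vehicle arrays. Its difference was 0.04 (SE 0.15) with a 95% interval from -0.35 to 0.44, and it turned to -0.011 after centring the arrays. Hsp90b1 (GRP94) differed by -0.08, the lectin-like chaperone gene Calr by -0.29, the disulfide isomerase genes Pdia3 and Pdia6 by 0.15 and 0.05, and Sdf2l1, a BiP-associated factor, by -0.25. Leaving out 1 array moved Calr to between -0.49 and -0.09, Sdf2l1 to between -0.43 and -0.07 and Pdia3 to between 0.00090 and 0.29. Dnajb9, a cochaperone of BiP and a target of spliced XBP1, had the largest difference of these 8 genes. It was at 10.85 and 11.32 on the combo arrays and at 10.25 and 10.90 on the vehicle arrays. Its groups overlapped by a narrow margin, with a difference of 0.51 (limma adjusted p = 0.94). The difference was 0.61 within replicate 1 and 0.42 within replicate 2. It was 0.19 without vehicle replicate 1, 0.28 without combo replicate 2 and 0.84 without vehicle replicate 2. With the replicate number added to the fit, the limma p of Dnajb9 was 0.021 (adjusted p = 0.51). Herpud1, which serves ER-associated degradation, differed by 0.67 within replicate 1 and by -0.14 within replicate 2. The probe set that Pdia4 shares with the microRNA gene Mir704 was at 14.02 and 14.10 on the combo arrays and at 13.24 and 14.09 on the vehicle arrays.

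Of these genes, Hspa5, Hsp90b1, Calr and Pdia6 carry the ER stress element, bound by ATF6 and XBP1 with NF-Y, in their RefSeq windows. Written as CCAAT and CCACG with 9 bases between them, on either strand, it was in 0.119% of the 32851 windows and in those of 4 of 33 genes of the list. The matches are printed with 15 bases on each side and in capitals, since these 4 genes are textbook targets of ATF6 and XBP1. Hsp90b1 has 2 matches, and a match on the opposite strand reads CGTGG first and ATTGG last.
Hspa5 (chr2:34772010-34772058, strand +): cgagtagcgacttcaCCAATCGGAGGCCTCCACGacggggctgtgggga
Hsp90b1 (chr10:86705518-86705671, strand -): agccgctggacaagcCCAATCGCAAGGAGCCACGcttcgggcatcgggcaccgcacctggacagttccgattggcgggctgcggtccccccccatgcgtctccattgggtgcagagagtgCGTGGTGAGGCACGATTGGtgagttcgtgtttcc
Calr (chr8:84847060-84847108, strand -): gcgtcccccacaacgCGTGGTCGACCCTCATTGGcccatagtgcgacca
Pdia6 (chr12:17266476-17266524, strand +): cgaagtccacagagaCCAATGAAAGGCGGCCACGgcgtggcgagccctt
These 4 genes had differences of 0.04, -0.08, -0.29 and 0.05, none past the unadjusted threshold. The shorter unfolded protein element TGACGTGG was in 0.676% of all windows and in 0 of the 33.

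Among 34 measured of 37 other genes of ER folding, degradation and sensing, the median was 0.11. Of these, 23 had higher means in the combo group (67.6%), against 38.5% of genes with a mean signal of 6 or more. Both combo arrays lay above both vehicle arrays for 9 of the 34 (26.5%), against 12% of genes with that signal. They lay below both vehicle arrays for 3 (8.82%), against 23.2%. At the unadjusted threshold 2 were higher (5.88%, against 3.36% of genes with a mean signal of 6 or more) and 0 lower. Vimp, which encodes selenoprotein S of the retrotranslocation complex, was at 12.35 and 12.67 on the combo arrays and at 11.66 and 11.96 on the vehicle arrays. Wfs1, an ER membrane protein gene induced by ER stress, was at 6.43 and 6.82 on the combo arrays and at 6.05 and 6.09 on the vehicle arrays. Their limma adjusted p-values were 0.80 and 0.84.

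**Figure D3:**
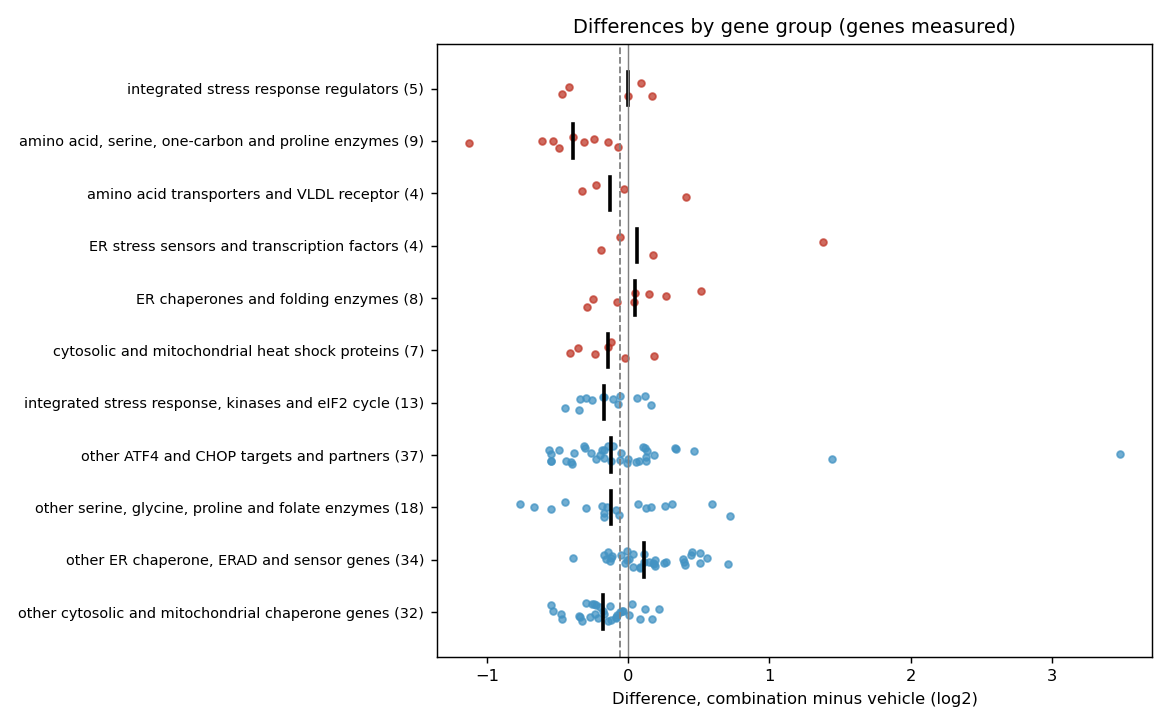
Difference between combo and vehicle arrays (log2) for each measured gene, by group, with the number of genes in brackets. Red points are genes of the 41, blue points are further genes of the pathways, black bars are medians and the dashed line is the median of genes with a mean signal of 6 or more (-0.06). The serine and one-carbon enzymes have the lowest median (-0.39).

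The mean gap between replicate numbers exceeded the gap between groups for 20 of the 37 genes (54.1%), near the 52.3% of all genes and 55.5% of those with a mean signal of 6 or more. In 10 of the 12 measured ER genes replicate 2 exceeded replicate 1 in both groups, against 30.1% of all genes and 27.3% of those with a mean signal of 6 or more. The same held for 24 of the 34 further ER genes. Ern1 was lower in replicate 1 by -1.08 in the combo group and by -0.42 in the vehicle group, and Herpud1 by -0.24 and -1.06. For 9 of the 12 ER genes the mean gap between the numbers was larger than the difference between combo and vehicle. The heat shock genes leaned the other way, with replicate 1 above replicate 2 in both groups for 4 of 7, against 28.2% of all genes and 38.5% of those with a mean signal of 6 or more. Neutrophil granule genes differed by number in the same arrays. The mean signal of the 12 mature neutrophil markers was 8.97 and 7.18 on combo arrays 1 and 2 and 8.81 and 6.63 on vehicle arrays 1 and 2, while 4 of the 12, Ly6g among them, stayed within the background range on all arrays. Of the progenitor markers, 8 of 11 were higher in replicate 2 in both groups. The part of these cells in the values of the ER genes was not tested. Shmt2, Phgdh and Xbp1 had the same sign in both numbers.

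**Figure D4:**
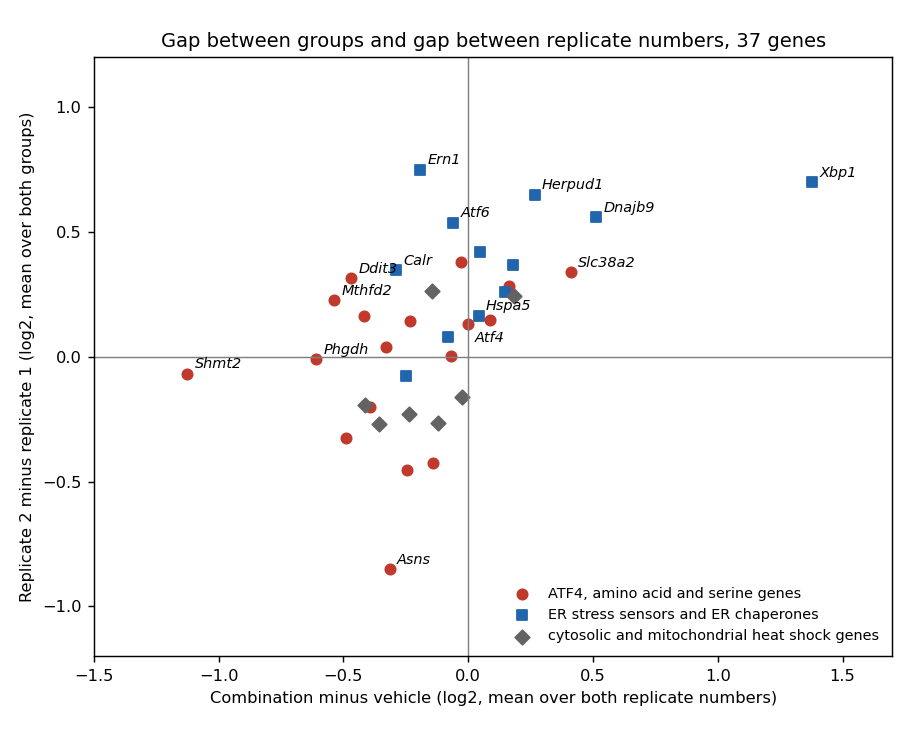
Each of the 37 genes by its difference between combo and vehicle (horizontal axis, log2) and its difference between replicate 2 and replicate 1 (vertical axis, log2, mean over both groups). Most ER genes (squares) lie above 0 on the vertical axis, Asns lies far below, and Shmt2 and Phgdh lie to the left near 0.

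The heat shock genes of the cytosol and mitochondria had a median of -0.14 over 7 measured genes, and 0 passed the unadjusted threshold. Of the 7, 6 had lower means in the combo group (85.7%), against 61.5% of genes with a mean signal of 6 or more. The median was -0.31 without vehicle replicate 2, -0.08 without combo replicate 2 and -0.28 with the probe sets shared with other symbols. Hspa1a, the inducible HSP70 gene, was at 5.86 and 5.38 on the combo arrays and at 5.99 and 6.08 on the vehicle arrays. Both combo arrays were lower, mainly replicate 2, and the difference was -0.41 (limma adjusted p = 0.93), or -0.17 without combo replicate 2 and -0.66 without combo replicate 1. The probe set shared by the near-identical genes Hspa1a and Hspa1b was at 6.22 and 5.35 on the combo arrays and at 6.22 and 6.06 on the vehicle arrays, where replicate 1 showed no gap. The cochaperone genes Dnajb1 and Hsph1 overlapped (-0.12 and -0.14), and the small heat shock gene Hspb1 differed by 0.18.

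Hspa8, the constitutive HSP70 gene, lies on chromosome 9, whereas the 4 probe sets that carry its symbol alone are named for chromosomes 1, 6 and 14. They read 19.66 to 19.86 on the combo arrays and 19.72 to 19.87 on the vehicle arrays, near the top of the value range, and the one taken by the rule differed by -0.03. The probe set on chromosome 9, which also carries 3 small nucleolar RNA symbols, was at 15.21 and 14.96 on the combo arrays and at 15.34 and 15.49 on the vehicle arrays. Both combo arrays were lower there, by a mean of -0.33.

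The mitochondrial chaperonin genes Hspd1 (HSP60) and its partner Hspe1 (HSP10) were lower on both combo arrays. Hspd1 was at 11.64 and 11.30 on the combo arrays and at 11.93 and 11.73 on the vehicle arrays, and Hspe1 at 11.25 and 10.94 against 11.40 and 11.25 on the vehicle arrays. The differences were -0.36 and -0.24 (limma adjusted p = 0.93 and 0.95), in the same direction in both replicate numbers, and for Hspe1 the groups were separated only narrowly. Without combo replicate 2 the differences were -0.19 for Hspd1 and -0.08 for Hspe1. The genes are read in opposite directions from a shared promoter, and the Hspe1 window overlaps those of 2 annotated starts of Hspd1, by 285 and 4 bases. The heat shock element, written as GAA, TTC and GAA with 2 bases between each, was in 0.603% of all windows and in those of 3 of the 33 genes, Hspd1, Hspe1 and Hsph1. The same stretch is printed once along each gene to show the element both share, where 2 overlapping matches make up the capitals.
Hspd1 (chr1:55088044-55088091, strand -): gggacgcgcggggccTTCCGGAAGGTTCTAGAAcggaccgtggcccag
Hspe1 (chr1:55088044-55088091, strand +): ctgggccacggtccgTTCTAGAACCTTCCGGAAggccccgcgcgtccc
Among 32 measured of 38 other chaperone genes of these compartments, 26 had lower means in the combo group (81.2%). Lower means were seen for 61.5% of genes with a mean signal of 6 or more. The median was -0.18, against -0.06 over genes with that signal. At the unadjusted threshold 3 were lower (9.38%, against 5.28% of genes with a mean signal of 6 or more) and 0 higher. The 3 are partners of HSP90 or HSP70. Stip1 (HOP) differed by -0.55, St13 (HIP) by -0.48 and Ahsa1, which activates the ATPase of HSP90, by -0.47. Both combo arrays lay below both vehicle arrays for 14 of the 32 (43.8%), against 15.4% of all genes and 23.2% of those with a mean signal of 6 or more.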

How the data were processed

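RNA of 4 samples (10 ng each, PicoPure extraction) was, per the labels' protocols, hybridised as biotin-labelled cRNA made with WT Pico reagents. The value table holds log2 signals, deposited by the authors; the submitters' processing notes name RMA and the Transcriptome Analysis Console, and the sources used here give no version or build. RMA equalises the arrays' distributions and compresses low signals, so a shift in RNA content per cell does not show, and differences of dim genes are understated. The table held 72688 rows, and 6732 control rows were left out. Repeats of 1 symbol in the annotation counted as 1 symbol, which gave 30604 probe sets with exactly 1.

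The fit was limma 3.58.1 (R 4.3.3; lmFit, eBayes, two-sided) over all 65956 probe sets with group as the only term and Benjamini-Hochberg adjustment. The residual degrees of freedom were 2, and the prior added 2.59. An exact permutation test of 2 against 2 arrays cannot go below p = 0.333 (two-sided), so none is given. The fit was tested on 10 simulations over 65956 probe sets, with 200 changed in each and independent noise drawn from the prior. After adjustment 0.4% of those with a log2 change of 1 were called, and 38.4% of those with a log2 change of 2. The simulations held no gap shared by replicate number. These shares also depend on the number of probe sets changed, so they need not hold for these data. With 2 arrays per group, their number limits the precision. Each SD is taken over 2 arrays.

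The members and lists were chosen with earlier results of these data known. Values on each array are given for members with an unadjusted p under 0.05 and groups that do not overlap. They were to be given in any case for 8 genes, but Hsf1, among these, was not analysed. Psph, Shmt1, Slc38a2, Dnajb9, Hspa8, Hspd1, Hspe1, Eif2ak2 and the shared probe sets were added after their values were seen. From each further list, up to 4 genes with the smallest p were named. Promoter sequences are RefSeq's. Other settings tried were other priors, the replicate number as a block, a filter on dim probe sets, control rows kept, other normalizations, the mean of all probe sets, each array left out, and 2 choices of probe sets added after seeing the data.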

Additional observations from a re-analysis of the deposited data

How the results depend on the processing

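Over 12 alternative settings and 2 added after seeing the data, 18 of the 37 genes kept their sign, Shmt2, Phgdh, Mthfd2 and Xbp1 among them, and 0 passed an adjusted p of 0.05 in limma. The count of genes lower at an unadjusted p under 0.05 was 3 and became 5 after centring the arrays on their medians, with 2 to 4 without 1 array. The count of genes higher was 1, became 2 with the replicate number as a block, and lay between 0 and 3 without 1 array. With that block 19 probe sets passed the adjusted threshold, against 2 without it, and 0 genes of the list did (Xbp1 adjusted p = 0.14, Shmt2 0.19). The gaps between replicates 1 and 2 correlated at 0.33 between the groups over all probe sets and at 0.49 over the 37 genes, from 2 pairs, and the labels do not say that the numbers pair the samples. The median difference of the ATF4, amino acid and serine genes was -0.28 and lay between -0.35 and -0.14 without 1 array. A second quantile normalization turned Atf4 to 0.025, and centring the arrays turned Hspa5 to -0.011 and Pdia6 to -0.0046. Without 1 array the sign turned for the following, with the range of their differences: Aldh18a1 (-0.50 to 0.0095), Asns (-0.78 to 0.15), Atf4 (-0.097 to 0.092), Atf6 (-0.41 to 0.29), Dnajb1 (-0.31 to 0.066), Eif2ak3 (-0.049 to 0.41), Ern1 (-0.73 to 0.35), Herpud1 (-0.26 to 0.79), Hsp90b1 (-0.20 to 0.042), Hspa5 (-0.074 to 0.16), Hspa8 (-0.11 to 0.062), Hspb1 (-0.026 to 0.39), Hsph1 (-0.42 to 0.13), Mthfd1l (-0.49 to 0.20), Pdia6 (-0.22 to 0.32), Psat1 (-0.17 to 0.027), Sesn2 (-0.0068 to 0.34), Slc7a5 (-0.34 to 0.29), Trib3 (-0.085 to 0.26). The cause of these changes was not tested. Taking the shared probe sets for Pdia4, Hspa1b and Hspa8, or leaving out Hspa8, left both counts at 3 and 1, but the shared probe sets moved the median of the heat shock genes to -0.28 from -0.14. Trib3 lay within background on all arrays, and Vldlr, Chac1 and Hspa1a on some, so their differences may be understated.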
